A study of Mus musculus with 8 samples.

Results

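Keratins are the intermediate filament proteins of epithelial cells. A filament forms from chains of type I paired with chains of type II, and the members expressed tell epithelia apart: Krt8 with Krt18 is the first pair of simple epithelia, Krt7 and Krt19 accompany it in glands and ducts such as the oviduct, and Krt5 with Krt14 belongs to the basal layer of stratified epithelia. The transcripts described here are those of 10 epithelial keratins, Krt5, Krt7, Krt8, Krt14, Krt17, Krt18, Krt19, Krt20, Krt23 and Krt80, chosen by gene symbol from 23337 symbols in the deposited values, which hold 42 further keratin symbols. Krt5, Krt7, Krt8 and Krt80 are type II and the others are type I.

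The RNA came from MOE cells, a line of oviductal epithelial cells of the FVB mouse strain. The oviduct is the mouse counterpart of the fallopian tube. Cells grown to confluence were taken up with trypsin and kept for 6 h on 2D collagen (4 libraries) or 3D collagen (4 libraries), in both cases in medium lacking EGF. No other allele or agent is named. All libraries come from 1 cell line, and no label states that the libraries of a group are separate cultures. The p-values therefore describe how libraries vary, and part of that variation may be technical. The comparison asks which transcripts differ between the substrates, in a study of how cancer of fallopian tube origin reaches the ovary.

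Each library held 15692699 to 25862036 reads assigned to genes. Values are normalized counts, that is reads divided by 1 size factor per library. A gene was tested if 4 or more libraries reached a normalized count of 10 (11820 genes). The test was limma on log2(normalized count + 1), and log2 fold changes, on that scale, are 3D minus 2D. The threshold was a Benjamini-Hochberg adjusted p under 0.05 over all genes tested. Of them 401 were lower (3.39%) and 275 higher (2.33%) on 3D collagen, 5.72% in all. Scaling by library size alone shifted the median log2 fold change over all genes by 0.17, and 317 genes were then lower and 499 higher. edgeR on the recovered reads called 5.73% in all.

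The label of an oviductal epithelium was borne out by some of its markers and not by others. The secretory factor Pax8 was abundant, at 441 to 566 counts per 1000000 reads (CPM) in the 8 libraries, and Pax2 reached 121 to 152 CPM. From the same list of secretory markers, Emx2 stood at 40.1 to 105 CPM and Wt1 at 38.0 to 94.5 CPM. Ovgp1, Msx1 and Sox17 did not exceed 1.37, 0.0942 and 0.0637 CPM, and Foxa2 was at 0 in every library. The epithelial adhesion genes Epcam and Cdh1 were low, at no more than 1.26 and 5.23 CPM, while the claudin Cldn4 stood at 16.8 to 67.0 CPM on 2D and 29.2 to 77.1 CPM on 3D collagen. The epithelial splicing regulator Esrp2 fell from 11.9 to 15.8 CPM on 2D to 5.97 to 7.72 CPM on 3D collagen without overlap (log2 fold change −1.14, limma adjusted p = 0.0258). Of all tested genes 10.4% had such separation in that direction. From the same list, Grhl2, Cldn4 and Cdh1 had log2 fold changes of 0.86, 0.52 and −0.08 (limma adjusted p = 0.188, 0.547 and 0.956). Cldn3, Cldn7, Ocln and Esrp1 did not exceed 0.757 CPM. Vimentin (Vim), a filament protein of mesenchymal and cultured cells, stood at 63508 to 104039 normalized counts beside the keratins. The markers of the other cell types are given beside the results they touch.

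The promoters of 3 abundant simple keratins are shown first because Krt8 passed the test and its partner Krt18 and the related type II gene Krt7 did not. All 3 had lower means on 3D collagen, and the call of Krt8 stood close to the threshold. Whether their fold changes differ from each other, or go with the promoter letters, was not tested. All 3 genes lie in the type II cluster on chromosome 15, where Krt18 is the type I member. Each line is the 250 bases before the RefSeq start on GRCm38.p6, 5′ to 3′ on the gene's strand, from the reference strain and not from these cells. The GENCODE gene models, whose positions are given below, start further upstream. All of the Krt7 window (model start 101411043) lies within its model, as does part of those of Krt8 (102004482) and Krt18 (102028180). Capitals mark matches, on either strand, to a GC box (GGGCGG) or a KLF site (CCACCC).
Krt8, chr15:102004343-102004592, minus strand: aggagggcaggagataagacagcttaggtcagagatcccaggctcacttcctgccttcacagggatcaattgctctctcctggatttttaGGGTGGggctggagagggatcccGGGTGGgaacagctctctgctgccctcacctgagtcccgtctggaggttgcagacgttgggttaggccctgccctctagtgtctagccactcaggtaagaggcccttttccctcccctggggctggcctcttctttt
Krt18, chr15:102027966-102028215, plus strand: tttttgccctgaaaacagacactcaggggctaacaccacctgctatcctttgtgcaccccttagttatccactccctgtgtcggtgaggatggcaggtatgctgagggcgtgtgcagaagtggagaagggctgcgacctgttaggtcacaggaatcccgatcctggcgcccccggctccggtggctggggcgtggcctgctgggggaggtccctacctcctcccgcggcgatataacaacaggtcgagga
Krt7, chr15:101412153-101412402, plus strand: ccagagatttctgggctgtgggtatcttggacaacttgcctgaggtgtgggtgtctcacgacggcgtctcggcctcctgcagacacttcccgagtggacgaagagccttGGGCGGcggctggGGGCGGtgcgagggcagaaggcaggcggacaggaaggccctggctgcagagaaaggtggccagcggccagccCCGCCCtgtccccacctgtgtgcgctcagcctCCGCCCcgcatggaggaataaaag

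The 3 windows differed in these letters. Krt7 held 4 GC boxes, a sequence found in 32.7% of the 32851 RefSeq promoter windows of the same length. Krt8 held 2 KLF sites, found in 28.1% of windows, and Krt18 held neither. The TATA box (TATAAA, in 12.4% of windows), AP-1 (TGANTCA, 6.75%), TEAD (GGAATG, 12.6%) and NRF2 (TGACNNNGC, 10.2%) sequences and the CArG box (1.47%) were not matched in the 3 windows. The table held 7 of the 10 genes; Krt17, Krt19 and Krt80 had no entry. Among the other 4 genes, Krt20 held 1 TATA box, 3 TEAD sequences (of which 2 share a base), 1 NRF2 sequence and 1 KLF site, Krt14 held 1 TEAD sequence and 1 KLF site, and none of the motifs was matched in Krt5 and Krt23. A match is a description of letters and not of a bound site.

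Cells on 3D collagen had less mRNA of Krt80 and of Krt8. Krt80, a type II keratin found in many differentiating epithelia, fell 4.85-fold, and Krt8 fell 1.70-fold. Krt18 and Krt7 had lower means on 3D collagen but did not pass the test, Krt19 overlapped widely between the groups, and no member passed in the higher direction. In a bulk library fewer cells of a type and less RNA per cell cannot be told apart. Of the 10 genes 9 entered the test, Krt17 being too low, and 2 of the 9 passed, where 3.39% of all tested genes passed in that direction. In normalized counts the groups did not overlap for Krt80, Krt8, Krt18 and Krt7, each lower on 3D collagen. Such separation in that direction was seen in 10.4% of all tested genes. Scaled by library size alone, Krt18 and Krt7 had log2 fold changes of −0.26 and −0.24, and the groups of Krt7 then overlapped. No member was separated in the higher direction (8.05% of all genes), and none had an unadjusted limma p under 0.05 or a call by edgeR or DESeq2 in that direction. The median log2 fold change of the 9 genes was −0.41, beside 0.02 for all genes tested.

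**Figure D1:**
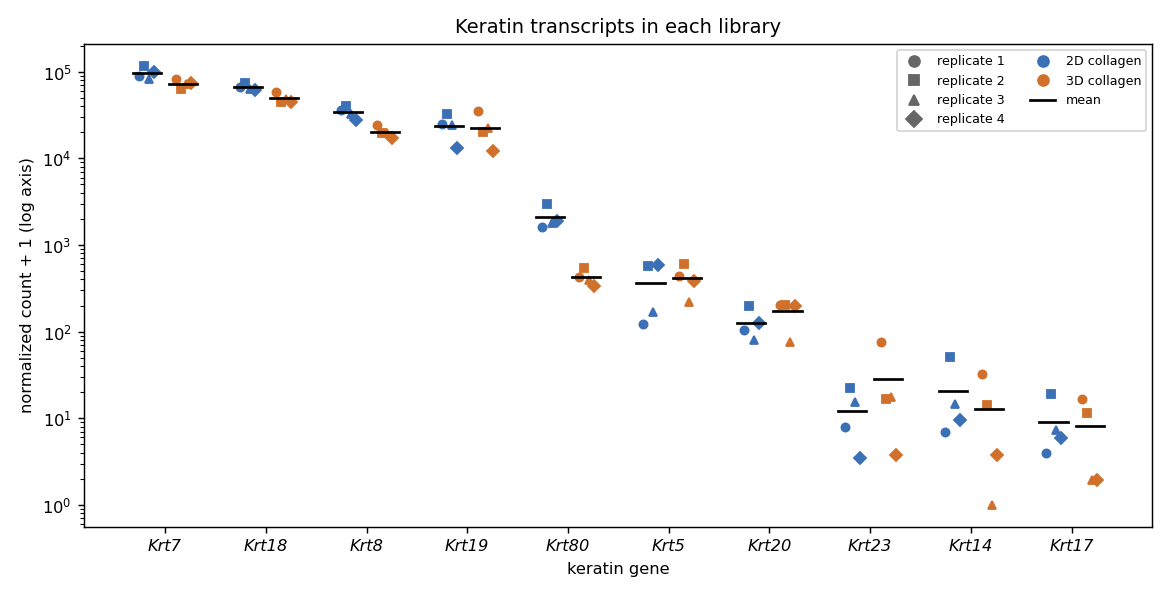
Normalized count + 1 (log axis) of the 10 keratins in each library, blue for 2D and orange for 3D collagen, with marker shapes for the replicate numbers and black bars at the group means. Krt80 sits between 1625 and 2983 on 2D and between 332 and 534 on 3D collagen. On this axis Krt14 and Krt23 spread over more than 10-fold across the libraries, and Krt17 over slightly less.

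Krt80 (ENSMUSG00000037185.9, chromosome 15, 101347444 to 101370162, mm10, minus strand) had 1625, 2983, 1814 and 1885 normalized counts in 2D replicates 1 to 4 and 425, 534, 394 and 332 in 3D replicates 1 to 4. The highest 3D library was far under the lowest 2D library, and replicate 2 was the highest in both groups. The means were 2077 ± 614 and 421 ± 84.7 (SD, n = 4 per group). The log2 fold change was −2.28 (SE 0.22, 95% interval −2.78 to −1.78, limma adjusted p = 0.00160). These values rest on 363 to 2497 reads per library. Krt80 passed in all 22 alternative analyses run for it, with limma adjusted p of at most 0.0118 when any single library was left out. An antisense gene model, Gm35853, overlaps 4.11% of its exonic bases, and since the strand setting of the counting is not given, reads of the overlap cannot be told apart.

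Krt8 (ENSMUSG00000049382.10, chromosome 15, 101996698 to 102004482, minus strand), the main type II keratin of simple epithelia, had 36232, 40597, 32809 and 27443 normalized counts on 2D and 24341, 19523, 19727 and 16941 on 3D collagen. All 3D values were under all 2D values, with the closest approach between 2D replicate 4 and 3D replicate 1. The means were 34270 ± 5557 and 20133 ± 3079 (SD, n = 4). The log2 fold change was −0.76 (SE 0.18, 95% interval −1.17 to −0.36, limma adjusted p = 0.0397). The call stood close to the threshold: without any one library except 2D replicate 4 the limma adjusted p was between 0.0631 and 0.135, and it was 0.0373 without 2D replicate 4. Of the 50-base windows of the Krt8 transcript 29.7% also occur in transcripts of other genes, chiefly the pseudogene Krt8-ps (26.9%), so some reads may have been split or dropped, and an antisense gene model overlaps 5.16% of its exonic bases.

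Krt18 (ENSMUSG00000023043.7, chromosome 15, 102028180 to 102032027, plus strand) is the type I partner of Krt8. It had 66115, 73285, 63646 and 60755 normalized counts on 2D and 58191, 44506, 48713 and 45246 on 3D collagen. The groups did not overlap, with means of 65950 ± 5358 and 49164 ± 6291 (SD, n = 4). The difference did not pass (log2 fold change −0.43, SE 0.16, 95% interval −0.78 to −0.08, limma adjusted p = 0.136). DESeq2 on the recovered reads did call it (adjusted p = 0.0411), and the range over the alternatives was 0.0411 to 0.356.

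Krt7 (ENSMUSG00000023039.17, chromosome 15, 101411043 to 101430313, plus strand), a type II keratin of ducts and glands, had 89189, 116561, 82774 and 100203 normalized counts on 2D and 82321, 62581, 71982 and 74229 on 3D collagen. The lowest 2D library and the highest 3D library nearly met. The log2 fold change was −0.41 (SE 0.17, 95% interval −0.80 to −0.03, limma adjusted p = 0.183). The intervals of Krt18 and Krt7 reach from nearly 0 to about the estimate for Krt8.

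Krt19 (ENSMUSG00000020911.14, chromosome 11, 100140810 to 100148665, minus strand), the smallest keratin and a type I chain of simple epithelia, had 25104, 32913, 24390 and 13158 normalized counts on 2D and 35478, 20354, 22351 and 12267 on 3D collagen. The groups overlapped over nearly their whole range, and replicate 4 was the lowest in each. The log2 fold change was −0.11 (SE 0.36, 95% interval −0.91 to 0.70, limma adjusted p = 0.886). Its sign turned with library size as the only scaling (0.068), without 2D replicate 2 (0.073), without 3D replicate 4 (0.16) and after removal of GC trends (0.11), so no direction can be given.

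**Figure D2:**
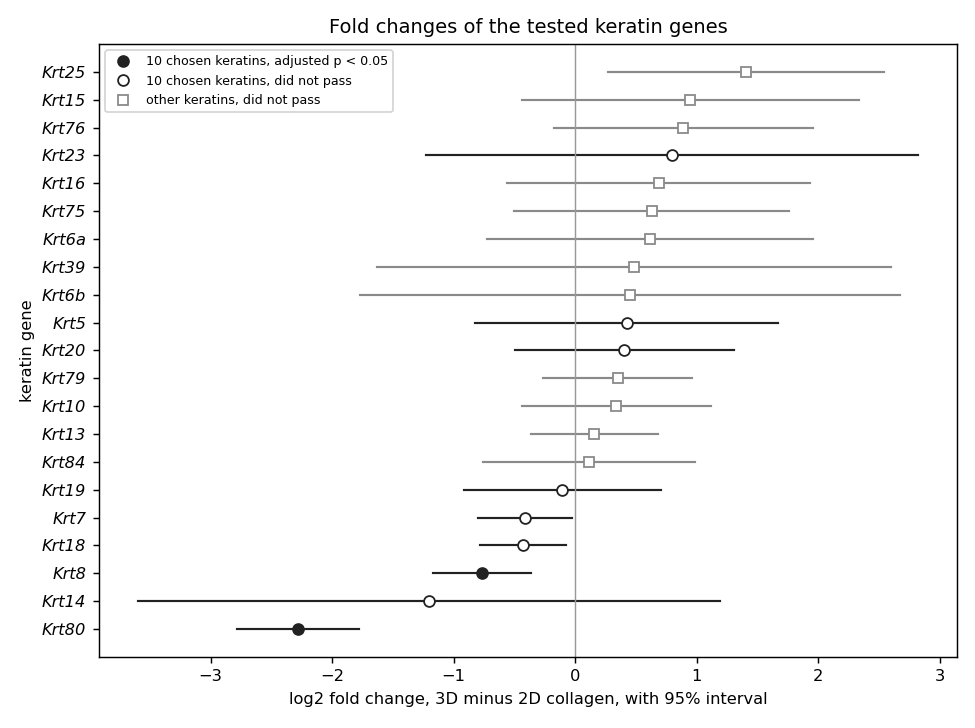
Log2 fold changes (3D minus 2D collagen) with 95% intervals for the 21 keratin genes tested, circles for the 10 chosen keratins and squares for the other keratins, filled where the limma adjusted p was under 0.05. Krt80 at −2.28 and Krt8 at −0.76 are the filled points, and the intervals of the low genes Krt14, Krt23, Krt39 and Krt6b are the widest.

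The balance between chains was compared as ratios of normalized counts per kilobase of merged exons in each library, as a description without a test. The Krt8 to Krt18 ratio was 0.402, 0.407, 0.378 and 0.332 in the 2D and 0.307, 0.322, 0.297 and 0.275 in the 3D libraries. Every 3D ratio was under every 2D ratio, and the group means differed by −0.34 on the log2 scale. The Krt7 to Krt19 ratio was 0.935, 0.932, 0.893 and 2.00 on 2D and 0.611, 0.809, 0.847 and 1.59 on 3D collagen. Replicate 4, where Krt19 was lowest, stood above the others in both groups, and the groups overlapped. The ratio of summed type II to summed type I keratins ran from 0.502 to 0.582 on 2D and from 0.408 to 0.508 on 3D collagen, overlapping slightly. The ratio of the sums was not among the planned ratios, and neither was that of Krt20 to Krt19, which overlapped between the groups. A further 3 ratios were chosen after the values were seen. The Krt7 to Krt18 ratio ran from 0.265 to 0.336 on 2D and from 0.287 to 0.334 on 3D collagen, a log2 difference of 0.02, and the Krt8 to Krt7 ratio from 0.986 to 1.46 and from 0.822 to 1.12. Both overlapped between the groups. The Krt80 to Krt8 ratio ran from 0.0137 to 0.0225 on 2D and from 0.00534 to 0.00838 on 3D collagen without overlap, a log2 difference of −1.52. The level of each ratio depends on the gene lengths used. The log2 difference between the groups does not for a ratio of 2 single genes, but does for the ratio of the sums.

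**Figure D3:**
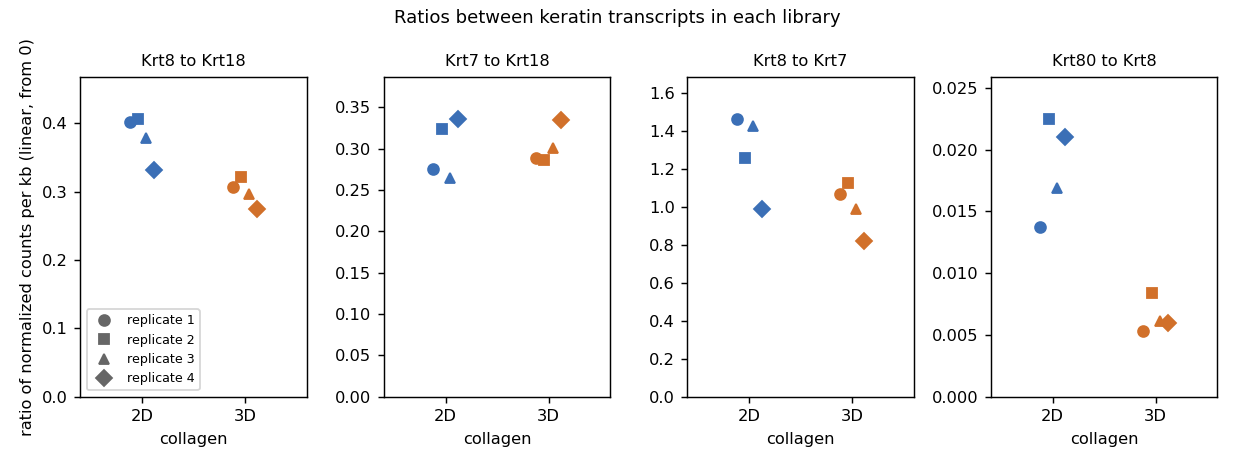
Ratios of normalized counts per kilobase (linear axes from 0) in each library, blue for 2D and orange for 3D collagen, with marker shapes for the replicate numbers. Krt8 to Krt18 and Krt80 to Krt8 separate the groups, and Krt7 to Krt18 and Krt8 to Krt7 do not.

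Per length the keratins fell into 3 tiers. Krt18 was the most abundant, with 45895 ± 3729 normalized counts per kilobase on 2D and 34213 ± 4378 on 3D collagen (SD, n = 4), rank 8 among 22872 genes by the mean over all libraries. Krt8 (17503 ± 2838 and 10282 ± 1572), Krt7 (13787 ± 2098 and 10325 ± 1152) and Krt19 (12880 ± 4383 and 12190 ± 5187) followed at ranks 39, 46 and 44. On 3D collagen the means of these 3 lay within the spread of Krt19, and on 2D collagen Krt8 was above Krt7 in every library except replicate 4. The order of these 3 depends on the transcript model: with the principal transcript in place of merged exons Krt7 had 23738 ± 3612 on 2D and 17777 ± 1983 on 3D collagen, above Krt8 and Krt19. The summed per-kilobase level of the 10 genes was 50.9% ± 2.60 Krt18, 19.3% ± 1.00 Krt8, 15.3% ± 2.09 Krt7 and 13.9% ± 3.33 Krt19 on 2D collagen (SD, n = 4). On 3D collagen the shares were 51.1% ± 2.70 Krt18, 15.3% ± 0.665 Krt8, 15.5% ± 1.95 Krt7 and 17.6% ± 4.62 Krt19. The reads of the 10 genes made up 1.01% to 1.14% of the reads of a 2D library and 0.800% to 1.01% of those of a 3D library.

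The middle tier held Krt80, Krt5 and Krt20. Krt80 stood at 325 ± 96.0 normalized counts per kilobase on 2D, above Krt5 (165 ± 116) and Krt20 (65.3 ± 26.4). On 3D collagen it stood at 65.9 ± 13.3, under Krt5 (187 ± 70.7) and near Krt20 (88.1 ± 32.7). With the principal transcript the 3D level of Krt80 was 137 ± 27.6, between those of Krt5 and Krt20. Krt23 (7.19 ± 5.36 and 17.6 ± 20.5), Krt14 (11.1 ± 11.8 and 6.76 ± 8.17) and Krt17 (5.17 ± 4.35 and 4.54 ± 4.77) formed the lowest tier, where no order exceeded the spread.

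The basal keratins Krt5 and Krt14 did not pass the test. Krt5 (ENSMUSG00000061527.7, chromosome 15, 101707070 to 101712898) had 122, 578, 167 and 587 normalized counts on 2D and 442, 597, 221 and 386 on 3D collagen. Both groups held high and low libraries, and the log2 fold change was 0.42 (SE 0.55, 95% interval −0.82 to 1.67, limma adjusted p = 0.683). Krt14 (ENSMUSG00000045545.8, chromosome 11, 100203162 to 100207548), its type I partner, had 5.84, 50.2, 13.4 and 8.58 on 2D and 31.7, 13.1, 0 and 2.74 on 3D collagen. With 0 to 42 reads per library, Krt14 was highest in 2D replicate 2 and 3D replicate 1 and had an adjusted p of 0.530 in limma. Krt5 was high in 2D replicate 4, where Krt14 was low, and per kilobase it was 9.22 to 113 times the level of Krt14 in the 7 libraries in which Krt14 had a read. Of the 50-base windows of Krt14 14.4% are shared with other genes, mostly Krt16, and of those of Krt5 12.2%. Trp63, the master regulator of basal cells, did not exceed 1.32 CPM in any library, and the summed level of 8 basal keratinocyte markers was 115 to 221 CPM on 2D and 116 to 163 CPM on 3D collagen, mostly the integrins Itgb4 and Itga6.

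Krt17, a stress and wound keratin, had 3, 15, 8 and 4 reads in the 2D libraries and 14, 12, 1 and 1 in the 3D libraries. It was below the limit for testing. Krt23 (chromosome 11, 99477974 to 99493137) had 6.82, 21.5, 14.2 and 2.45 normalized counts on 2D and 74.7, 15.7, 16.8 and 2.74 on 3D collagen. Its highest value, in 3D replicate 1, stood apart, and it did not pass (log2 fold change 0.80, SE 0.90, limma adjusted p = 0.633). Without that library the log2 fold change was 0.08.

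Krt20 (ENSMUSG00000035775.2, chromosome 11, 99428403 to 99438150), a keratin known from intestinal and urothelial lining, had 102, 197, 79.9 and 124 normalized counts on 2D and 204, 203, 75.6 and 197 on 3D collagen. In the 3D group replicate 3 lay far below the others, which agreed closely. The log2 fold change was 0.40 (SE 0.40, 95% interval −0.50 to 1.31, limma adjusted p = 0.581).

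Transcripts known from intestine differed between libraries within both groups. The summed level of 15 intestine genes was 35.5 CPM in 2D replicate 2, 21.8 in 3D replicate 1 and 19.7 in 3D replicate 2, and 5.82 to 9.16 CPM in the other libraries, and their most abundant members were Anpep and Reg3b. Krt14 and Krt17 were highest in 2D replicate 2 and 3D replicate 1, and Krt20 was high in these 3 libraries but equally so in 3D replicate 4 (197), where the sum was 6.19 CPM. Their part in the values of the low keratins was not tested. Without the 3 libraries Krt80 kept its fall (log2 fold change −2.29, limma adjusted p = 0.0337), and Krt8 had −0.81 with an adjusted p of 0.175 from 5 libraries.

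Markers of other lineages were present at different levels. Those of fibroblasts summed to 3.44 to 19.5 CPM on 2D and 4.24 to 17.4 CPM on 3D collagen, led by Dcn and Col1a1. Of the 3 fibroblast markers tested, Pdgfra rose from 0.116 to 0.382 CPM on 2D to 0.838 to 0.978 CPM on 3D collagen (log2 fold change 1.73, limma adjusted p = 0.0340). Pdgfra passed the filter on low values only through the 3D libraries, with 14.9 to 19.3 normalized counts there and 2.37 to 7.35 on 2D collagen. The call therefore depends on the group in which the gene was high. Immune markers, almost wholly Cd68 with Cd74 next, summed to 7.58 to 19.4 and 18.7 to 31.7 CPM, and endothelial ones, led by Kdr and Vwf, to 14.5 to 29.8 and 17.5 to 39.7 CPM. Mesothelial markers, led by Msln and Cd200, summed to 793 to 1258 CPM on 2D and 583 to 734 CPM on 3D collagen, and the 4 tested had limma adjusted p from 0.0537 to 0.384. Most of that sum was Msln (log2 fold change −1.05, limma adjusted p = 0.0537), and Wt1 had a log2 fold change of 0.36 (adjusted p = 0.298). Ciliated-cell markers, led by Foxj1 and Rsph1, summed to 63.1 to 89.9 CPM on 2D and 17.8 to 83.6 CPM on 3D collagen, and 3 of the 8 in the files (Ccdc113, Dynlrb2 and Fam183b) were at 0 in every library. The 8 secretory markers summed to 707 to 842 CPM on 2D and 776 to 847 CPM on 3D collagen. The part of the differences in Msln, Foxj1, Pdgfra and Esrp2 in the lower Krt8 and Krt80 was not tested.

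Other keratins were present only at low levels. Of the 42 further keratin symbols 12 were tested and none passed in limma at the adjusted threshold, with 1 (Krt25) at an unadjusted p under 0.05. edgeR with TMM also called none, and DESeq2 called Krt25 as higher. All 12 had log2 fold changes above 0 with a median of 0.55, beside 6082 of all 11820 genes above 0. For Krt6a, Krt6b, Krt10, Krt13, Krt15, Krt16, Krt25 and Krt39 the top value of any library was that of 3D replicate 1. Krt75, Krt76, Krt79 and Krt84 peaked elsewhere. Krt6b and Krt16 stood at the limit of the filter on low values. How far the shared sign rests on that library was not tested. Krt79 was the most abundant, at 195 ± 31.0 normalized counts on 2D and 257 ± 84.4 on 3D collagen, followed by Krt13 (106 ± 15.0 and 118 ± 19.9) and Krt76 (81.9 ± 58.9 and 141 ± 71.8), keratins of stratified or glandular skin and oral lining. Krt25, a hair follicle keratin, had the largest log2 fold change, 1.40 (SE 0.51, limma adjusted p = 0.133), from 12.5 ± 3.97 to 39.3 ± 24.2. Krt15 reached 253 in 3D replicate 1 against 18.4 to 72.5 in the other libraries. The stress keratins Krt6a, Krt6b and Krt16, the suprabasal Krt10, and Krt39, Krt75 and Krt84 had mean normalized counts of 8.91 to 58.3. Krt6a and Krt6b share 57.5% and 50.1% of their 50-base windows with other genes, chiefly each other, and Krt16 shares 37.6%, so their counts are uncertain.

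Proteins that anchor or organise keratin filaments were tested next, and 3 of 17 tested genes fell and none rose in limma. Of all tested genes 3.39% passed in the lower direction. In the higher direction 3 linkers had an unadjusted limma p under 0.05, and edgeR called 0 and DESeq2 2. Plectin (Plec), which links keratins to hemidesmosomes and actin, had 24632, 31961, 33757 and 27525 normalized counts on 2D and 15180, 15383, 14498 and 15436 on 3D collagen. Its 3D libraries were tightly grouped below all 2D libraries (log2 fold change −0.95, SE 0.15, limma adjusted p = 0.0107), and without 3D replicate 3 the adjusted p was 0.0546. Epiplakin (Eppk1), a keratin-binding plakin, fell from 855 ± 346 to 357 ± 37.1 (log2 fold change −1.18, limma adjusted p = 0.0313). Plakophilin 2 (Pkp2), a desmosomal plaque protein, fell from 3406 ± 622 to 1857 ± 109 (log2 fold change −0.86, limma adjusted p = 0.0193). Leaving out single libraries ended the call of Eppk1 for 2D replicate 1 and each 3D replicate and that of Pkp2 for 3D replicates 1, 2 and 3, with limma adjusted p of at most 0.0957 and 0.0690. In the 5 libraries left without the 3 highest in intestine transcripts, where 14 genes were called in all, none of the 3 was called, with log2 fold changes of −0.92 for Plec, −1.31 for Eppk1 and −0.88 for Pkp2. Eppk1 was also not called under library size scaling and after removal of GC trends. The median log2 fold change of the 17 genes was 0.12, and desmoplakin (Dsp), picked out with its value known, missed the threshold at 0.96 (log2; limma adjusted p = 0.0699) with groups that did not overlap.

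Transcription factors that act on keratin genes or on epithelial differentiation rose in 4 of 20 tested genes and fell in none in limma. Of all tested genes 2.33% passed in the higher direction. In the lower direction 1 factor had an unadjusted limma p under 0.05, and edgeR called 0 and DESeq2 1. The median log2 fold change was 0.47, beside 0.02 for all genes tested. The factor lower at the unadjusted p was Elf3, the most abundant tested factor by normalized counts. It had 16486 ± 6287 on 2D and 8039 ± 1901 on 3D collagen, with groups that overlapped (log2 fold change −0.96, limma adjusted p = 0.131). Klf5, a factor of proliferating epithelia, had 70.1, 37.0, 66.4 and 67.4 normalized counts on 2D and 177, 225, 117 and 193 on 3D collagen. Every 3D library was above every 2D library (log2 fold change 1.55, limma adjusted p = 0.0238). Its relative Klf4 went from 201 ± 51.3 up to 378 ± 40.6 (log2 fold change 0.94, limma adjusted p = 0.0440). Cebpb, a bZIP factor of differentiating cells, increased to 1577 ± 335 from 641 ± 248 (log2 fold change 1.35, limma adjusted p = 0.0287). Nfe2l2, which encodes NRF2, increased to 5238 ± 1286 from 2006 ± 661 (log2 fold change 1.42, limma adjusted p = 0.0247). In the 5 libraries left without the 3 highest in intestine transcripts none of the 4 was called, with log2 fold changes of 1.13 for Klf5, 0.94 for Klf4, 1.33 for Cebpb and 0.86 for Nfe2l2. These calls rest on few libraries: leaving out 1 library ended the call of Klf4 in 7 of 8 cases (all except 2D replicate 3), of Cebpb in 6 (all except 2D replicate 2 and 3D replicate 4), of Klf5 in 4 (2D replicate 3 and 3D replicates 1, 2 and 4) and of Nfe2l2 in 4 (2D replicate 4 and 3D replicates 1, 2 and 3), with limma adjusted p of at most 0.128. Other intermediate filament genes had no call among 7 tested in limma (2 at an unadjusted p under 0.05) or in edgeR with TMM, and DESeq2 called 2. The log2 fold change of Vim was 0.26 (limma adjusted p = 0.382) and that of the lamin gene Lmna −0.34 (adjusted p = 0.372).

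**Figure D4:**
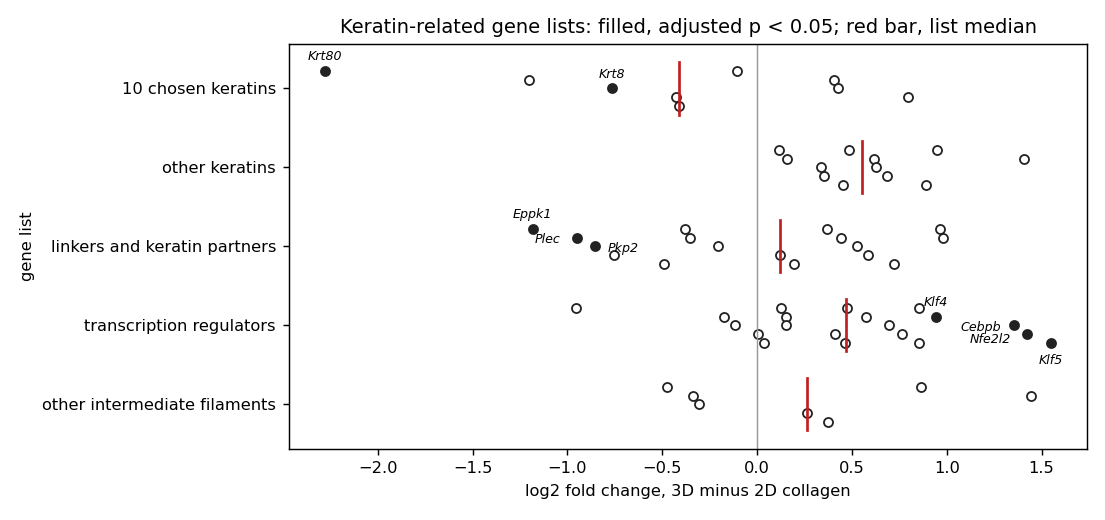
Log2 fold change (3D minus 2D collagen) of each tested gene in 5 lists, 1 point a gene, filled and named where the limma adjusted p was under 0.05, with a red bar at the list median. Calls among the keratins and their linkers are below 0 and calls among the transcription regulators are above 0.

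The genes whose log2 values followed those of Krt80 most closely over the 8 libraries, among all tested genes that are not keratins, were 2810453I06Rik, Syde1 and A430105I19Rik, with Pearson r of 0.996, 0.996 and 0.995. Of these Syde1 and A430105I19Rik were lower on 3D collagen (log2 fold changes −1.16 and −1.18, limma adjusted p = 0.00548 and 0.00367). For Krt18, the most abundant keratin per length, they were Rapgefl1, Sar1a and 1300014I06Rik, with r of 0.984, 0.980 and 0.975. Here 1300014I06Rik was lower on 3D collagen (log2 fold change −1.27, limma adjusted p = 0.0356). Rapgefl1 and Sar1a were not called (limma adjusted p = 0.465 and 0.117). The genes named for both keratins were picked as the highest of 11820 genes. The libraries share the group difference, so r describes likeness and is given without a p.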

How the data were processed

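RNA sequencing of 8 libraries was used. HTSeq 0.6.1p1, DESeq2 and the mm10 build are named, per the submitters' processing notes. The sources used here do not state the aligner, annotation, strand setting or filters. Each file gives a normalized signal for each gene symbol as the authors deposited it. In every library 100% of the values were whole multiples of 1 read's worth, within 0.001 reads, so whole reads were recovered. At 15692699 to 25862036 reads per library the counting error is small for abundant keratins and large for those with a few reads. Depth does not remove the spread between libraries, which was wide for the abundant Krt19.

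The main test was limma 3.58.1 (R 4.3.3) with a trended, robust prior, pseudocount 1, without covariates. edgeR 4.0.16 on the recovered reads, as an alternative, called 677 genes (5.73%), and DESeq2 1.42.0 was another. Gene lengths, positions and exon overlaps came from GENCODE M21 (GRCm38); 22872 symbols matched. Promoters came from RefSeq (GRCm38.p6). The fit was run on simulated counts drawn independently for each library, which does not cover variation shared between libraries. The members and gene lists were chosen with earlier results of these data known. Named were all members, all tested keratins, the called genes of each list (otherwise its 2 most abundant), the 2 most abundant markers of each cell type and the 3 genes most like Krt18 and Krt80. Dsp, Elf3 and the other cell type markers named were chosen after their values were seen. 1 epithelial marker, and the sum that holds it, is not reported here. Alternatives were other scalings, pseudocounts, filters, tools, transcript lengths, the replicate block and left-out libraries; GC trend removal (lowess, span 30%) and principal transcript lengths were added after the data were seen.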

Additional observations from a re-analysis of the deposited data

Results flagged for a closer look

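Krt20 in 3D replicate 3 had 75.6 normalized counts, and the gap to the nearest of the other 3D libraries took up most of the range of that group. The groups of all 10 keratins, 20 in all, were examined in this way, and chance marks about 1 in 20 groups.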

How the results depend on the processing

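Krt80 was lower and called in every alternative run. Krt8 was lower in every one, and its call was lost without a filter on low values (limma adjusted p = 0.05004), without both libraries numbered 4 (0.0527), without the 3 libraries highest in intestine transcripts (0.175) and without any single library except 2D replicate 4. Of 190 alternative values of the 9 tested keratins, 175 kept their direction and side of the threshold, 10 were no longer called (all Krt8), 1 became called (Krt18 with DESeq2) and 4 changed sign (Krt19, log2 fold change 0.068 with library size scaling, 0.073 without 2D replicate 2, 0.16 without 3D replicate 4 and 0.11 after GC trend removal). The number of lower keratins was thus 1 without a filter, without both libraries numbered 4 and without the 3 libraries, and 1 to 2 when single libraries were left out. With single libraries left out the log2 fold change of Krt19 ran from −0.37 to 0.16, and the log2 ratio of Krt7 to Krt19 from −0.12 to 0.27 on 2D and from −0.42 to 0.042 on 3D collagen. That ratio was 0.40 on 3D collagen with the longest or the principal transcript, against −0.15 with merged exons.

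The replicate numbers were not taken as pairs, since the labels state no pairing and the correlation of deviations from the group means was −0.17 for the libraries numbered 1. It was 0.37, 0.25 and 0.81 for those numbered 2, 3 and 4, and not every library correlated best with its own number. With the replicate block limma called 663 genes higher and 742 lower, and edgeR 718 and 643. With either block 2 other keratins, 1 linker and 1 other intermediate filament gene were higher and 1 transcription factor lower. Over all genes, higher and lower calls numbered 708 and 871 with DESeq2, 481 and 605 after GC trend removal, 499 higher with library size scaling, 163 and 265 without both libraries numbered 4 and 0 and 14 without the 3 libraries. They were 42 to 267 and 105 to 360 with single libraries left out. DESeq2 called 1 other keratin, 2 linkers and 2 other filament genes higher and 1 transcription factor lower, and GC trend removal left 1 linker higher. Without the 3 libraries no linker was lower (0) and no transcription factor higher (0), and without both libraries numbered 4 they were 2 higher and 1 lower for transcription factors. With single libraries left out, 0 to 1 other keratins and 0 to 1 other filament genes were higher, 0 to 3 linkers lower, and 0 to 3 transcription factors higher and 0 to 1 lower. Causes of these shifts were not tested. The fits with libraries left out also hold fewer libraries, and the number cannot be told apart from which libraries were left out. Where a group keeps 2 libraries, limma's shared prior carries the spread. Depth limits Krt14, Krt17 and Krt23, with 0 to 66 reads per library.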
